A study of Mus musculus with 62 samples.

Results

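Thyroid hormone signalling was followed through 9 genes, found by their mouse Entrez identifiers among 18821 genes counted by RNA sequencing. They were the receptors Thra and Thrb, the deiodinases Dio1, Dio2 and Dio3, the transporters Slc16a10 and Slco1c1, and the hormone-responsive genes Klf9 and Hr. The libraries came from female C57BL/6 mice, an inbred laboratory strain, given by mouth either vehicle or a mixture of polychlorinated biphenyls (PCBs, persistent industrial chemicals) that the series calls the MARBLES mixture, at doses of 0.1, 1 and 6 mg/kg. By rising dose, the liver had 4 vehicle libraries and then 4, 6 and 6 treated ones, and the prefrontal cortex and the striatum each had 4, 5, 6 and 6. Age, length of treatment and the spacing between the last dose and collection are not given in the sources used here. The comparisons ask whether PCB-treated mice differ from vehicle mice in these transcripts, dose by dose, and whether the tissues differ.

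The thyroid secretes mostly thyroxine, a prohormone that enters cells through membrane transporters and is converted by deiodinases into triiodothyronine, the active hormone, or into inactive forms. Triiodothyronine binds nuclear receptors that sit on DNA with retinoid X receptors and switch between corepressors and coactivators. In the brain, Slco1c1 carries thyroxine across the blood-brain barrier, astrocytes activate it with Dio2, and neurons inactivate the active hormone with Dio3. PCBs are known to lower circulating thyroxine in rodents. Hormone levels were not analysed here.

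In GRCm38 (GENCODE vM21), the receptor genes Thra (Entrez 21833) and Thrb (21834) lie on chromosomes 11 (98740638 to 98769006) and 14 (17660261 to 18038090). The deiodinase genes Dio1 (13370), Dio2 (13371) and Dio3 (107585) lie on chromosomes 4 (107291465 to 107307169), 12 (90724552 to 90738438) and 12 (110279068 to 110281097). The transporter genes Slc16a10 (72472) and Slco1c1 (58807) lie on chromosomes 10 (40033532 to 40142258) and 6 (141524368 to 141570177). The target genes Klf9 (16601) and Hr (15460) lie on chromosomes 19 (23141226 to 23168134) and 14 (70552212 to 70573548).

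The promoters of the 3 members with the smallest p at 6 mg/kg in the liver and the striatum are printed for reference, from 250 bases before to 50 bases after the RefSeq start in GRCm38.p6. They are written 5′ to 3′ on the gene's strand, with capitals for any searched motif. The motifs, searched on both strands, were AGGTCA (the hexamer core of thyroid hormone and related receptor sites), TGACGTCA (the cAMP response element), GCGTG (the core bound by the aryl hydrocarbon receptor, CACGC on the other strand) and CACGTG (the E-box).
Dio1, chr4:107307119-107307418, minus strand: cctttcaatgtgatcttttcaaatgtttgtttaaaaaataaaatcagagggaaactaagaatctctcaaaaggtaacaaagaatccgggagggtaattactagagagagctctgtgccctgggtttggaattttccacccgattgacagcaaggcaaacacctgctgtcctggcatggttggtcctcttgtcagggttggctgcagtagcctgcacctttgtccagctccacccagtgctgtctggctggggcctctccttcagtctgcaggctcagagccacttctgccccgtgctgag
Slc16a10, chr10:40142205-40142504, minus strand: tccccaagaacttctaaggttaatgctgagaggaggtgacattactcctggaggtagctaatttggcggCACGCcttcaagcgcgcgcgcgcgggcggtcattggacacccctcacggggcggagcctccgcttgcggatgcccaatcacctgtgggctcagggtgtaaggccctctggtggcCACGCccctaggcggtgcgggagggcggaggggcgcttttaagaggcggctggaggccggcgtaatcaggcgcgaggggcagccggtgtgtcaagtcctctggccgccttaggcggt
Dio2, chr12:90738989-90739288, minus strand: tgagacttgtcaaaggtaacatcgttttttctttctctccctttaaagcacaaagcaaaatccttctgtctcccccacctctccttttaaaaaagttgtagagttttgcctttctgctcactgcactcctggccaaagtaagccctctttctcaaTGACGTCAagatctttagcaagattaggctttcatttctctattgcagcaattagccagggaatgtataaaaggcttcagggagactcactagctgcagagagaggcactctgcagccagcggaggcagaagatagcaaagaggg
The Dio1 window held none of the 4 motifs, the Slc16a10 window held 2 copies of the GCGTG core, and the Dio2 window held 1 TGACGTCA that began 95 bases before the start. The table held 8 windows for 7 of the 9 members, Thrb having 2. AGGTCA occurred in 1 of the 8 and in 16.3% of 32851 promoters of the same length, TGACGTCA in 1 and 1.79%, GCGTG in 3 and 32.4%, and CACGTG in 2 and 7.15%. These are letter matches only.

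Total counts per library ranged from 7.38 M to 10.2 M in the liver and reached 12.1 M in the brain, where the lowest were 8.72 M in prefrontal cortex and 8.28 M in striatum. Of the 9 members, 6 passed the filter on low counts in the liver and 8 in each brain region. The summed level of 6 hepatocyte markers was between 72358 and 157867 CPM (counts scaled to library size, as edgeR computes them) in the liver libraries and at most 1.16 CPM in the brain libraries, and 6 neuron markers summed to at least 3029 CPM in the brain and at most 47.9 CPM in the liver. The brain regions were less distinct: 6 markers of cortical projection neurons summed to 1364 to 2378 CPM in the prefrontal cortex and to 64.0 to 1717 CPM in the striatum.

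In vehicle mice the levels of most members differed between liver and brain, as those of most genes did. Per kilobase of exon, the receptor Thra led both brain regions, at 188 ± 13.9 CPM per kilobase in prefrontal cortex and 191 ± 27.1 in striatum (SD, n = 4 each), against 18.3 ± 7.70 in the liver. The receptor Thrb was lower in each tissue, at 7.42 ± 0.881, 5.75 ± 1.45 and 2.89 ± 0.213 CPM per kilobase in the same order. Klf9, a transcription factor gene induced by thyroid hormone and also by glucocorticoids, came next to Thra in the brain, at 63.9 ± 5.29 and 51.8 ± 4.61 CPM per kilobase, and stood at 12.2 ± 2.55 in the liver.

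Among the deiodinases, Dio1, the enzyme typical of liver, was at 66.0 ± 18.8 CPM per kilobase in the liver (SD, n = 4), the highest of the 9 members there. It was not among the genes listed for either brain region, where each listed gene had at least 10 counts in total. Dio2, the activating enzyme of astrocytes, was at 12.4 ± 1.67 CPM per kilobase in prefrontal cortex and 7.80 ± 1.58 in striatum. Dio3, the inactivating enzyme, was at 1.06 ± 0.303 and 1.81 ± 0.767 CPM per kilobase. In single liver libraries of any dose, Dio2 had 0 to 8 counts, Dio3 0 to 6 and Slco1c1 0 to 9, and these genes were not tested against dose there.

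The transporters were split in opposite ways. Slc16a10, which carries thyroid hormones and aromatic amino acids, was at 19.0 ± 2.37 CPM per kilobase in the liver and at 0.384 ± 0.177 and 0.176 ± 0.114 in the prefrontal cortex and striatum (SD, n = 4). Slco1c1 was at 9.49 ± 0.879 and 9.38 ± 0.492 CPM per kilobase in the brain regions. Hr, a corepressor gene induced by thyroid hormone in brain, was at 6.15 ± 0.237 and 4.60 ± 0.898 CPM per kilobase in the brain and at 0.175 ± 0.0911 in the liver. In the liver, the ranges of Slc16a10, Thra and Klf9 overlapped in the chain from 8.91 to 28.8 CPM per kilobase, whereas Dio1 lay above them and Thrb below. In the prefrontal cortex, Dio2 overlapped Slco1c1 and Thrb overlapped Hr, while Slco1c1 lay above Thrb. In the striatum, Slco1c1, Dio2, Thrb and Hr overlapped from one to the next.

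**Figure D1:**
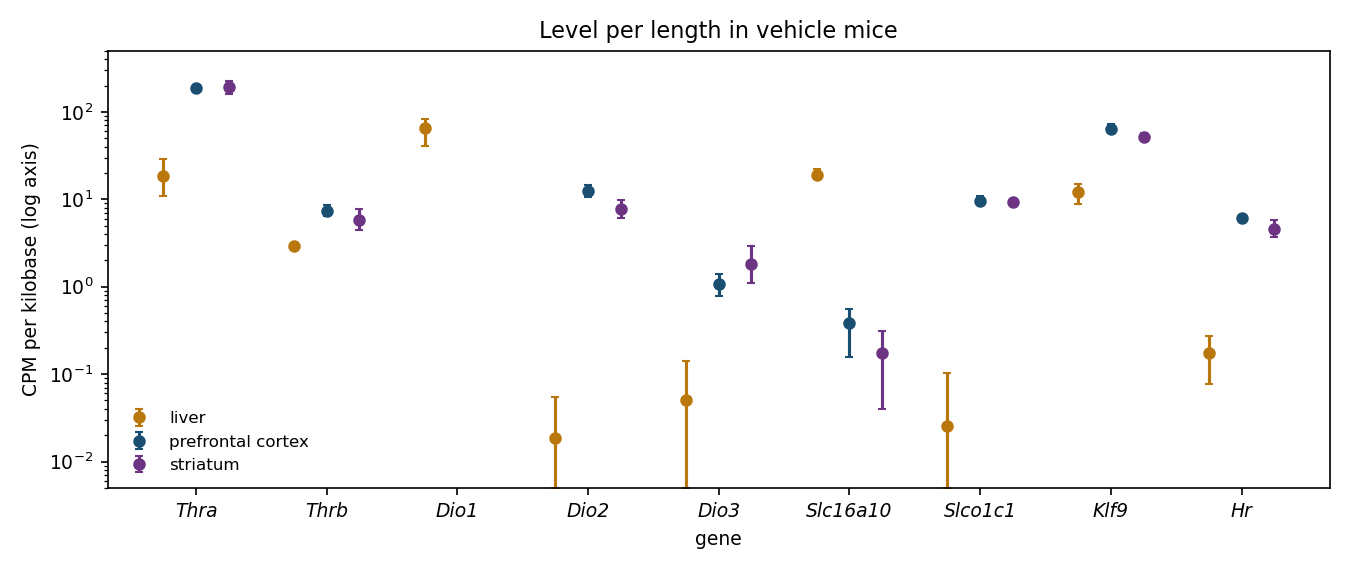
Mean level of each member in vehicle mice, in TMM-scaled CPM per kilobase of exon on a log axis, by tissue (n = 4 libraries each); bars span the lowest to the highest library and are cut at the axis where the lowest is 0. Thra is highest in both brain regions, Dio1 in the liver, and Slc16a10 is at 19.0 in the liver against 0.384 and 0.176 in the brain. Scaling was within each tissue, so heights are not on a common scale between tissues.

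Tests between the vehicle tissues scaled both tissues of a pair together, whereas the CPM levels were scaled within each tissue. The levels and the log2 differences below are therefore not on a common scale between tissues. Against the prefrontal cortex, 8 of 8 tested members differed in the liver, where 84.9% of all genes did, so the count says little about the members. Slc16a10 was higher in the liver by a log2 difference of 6.55 (SE 0.251, adjusted p 2.10e-11 by edgeR). The other 7 were lower in the liver, and among the 4 of them with at least 5 counts in every vehicle liver library the log2 difference ran from -0.43 for Thrb (SE 0.124) to -4.21 for Hr (SE 0.240). Dio2, Dio3 and Slco1c1 had at most 5 counts per vehicle liver library, too few for a fold. They passed the filter only through their brain counts, so their calls were fixed in advance and add nothing to the count. Against the striatum, 7 of 8 members differed, beside 83.7% of genes, again counting Dio2, Dio3 and Slco1c1, whose calls add nothing. Thrb was the exception, with a log2 difference of 0.01 (SE 0.173, adjusted p 0.979 by edgeR). Its levels scaled within each tissue were 2.89 CPM per kilobase in the liver and 5.75 in the striatum.

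Between the brain regions, 3 of 8 members differed, beside 22.2% of genes, and all 3 were lower in the striatum. Dio2 was at 68.1, 73.6, 62.2 and 85.0 CPM in the 4 vehicle prefrontal cortex libraries and at 42.1, 35.6, 46.2 and 57.5 CPM in the striatum, without overlap, a log2 difference of -0.75 (SE 0.140, adjusted p 0.00194 by edgeR). Klf9 was at 292, 345, 291 and 302 CPM in the prefrontal cortex and at 253, 238, 279 and 228 CPM in the striatum, also without overlap (log2 difference -0.38, SE 0.0988, adjusted p 0.0132 by edgeR). Hr was at 42.6 ± 1.67 CPM in the prefrontal cortex and at 31.8 ± 6.20 CPM in the striatum (SD, n = 4), and its highest striatum library, at 40.1 CPM, was below its lowest prefrontal cortex library, at 41.4 CPM (log2 difference -0.50, SE 0.129, adjusted p 0.0131 by edgeR). Thrb missed the threshold (log2 difference -0.45, SE 0.155, adjusted p 0.0550 by edgeR). Leaving out animal 3 or animal 4 left Dio2 as the only call, and leaving out animal 8 gave 5 calls. Cortical projection neuron markers summed to 1845 to 2290 CPM in the vehicle prefrontal cortex and to 74.5 to 1161 CPM in the vehicle striatum. Astrocyte markers summed to 3154 to 3706 and 2805 to 3070 CPM in the same order, without overlap. Oligodendrocyte markers ran the other way, at 2126 to 3224 and 4149 to 6332 CPM. The part of these cell types in the differences was not tested. In bulk tissue, fewer cells of a type and less RNA per cell cannot be told apart.

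In the liver, Dio1 rose at 6 mg/kg, and Slc16a10 fell over the steps of dose. Of 6 tested members, 1 was called at 6 mg/kg (adjusted p under 0.05), beside 2.80% of all genes, and 2 had an unadjusted p under 0.05, beside 24.2%. The median log2 fold change was -0.09 over the 6 members and 0.02 over the 12968 genes tested. At 1 mg/kg no member was called (0% of genes), and 3 of 6 had an unadjusted p under 0.05 (8.44% of genes). At 0.1 mg/kg no member was called (0.0154% of genes), and none had an unadjusted p under 0.05 (4.10% of genes); DESeq2 also called none at either dose. Over the rank of the dose, 2 members had a slope that was called, beside 4.81% of genes, and the same number had an unadjusted p under 0.05, beside 25.4% of genes. Dio1 and Slc16a10 were also the members whose groups at 6 mg/kg and vehicle did not overlap, which held for 6.76% of genes.

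Dio1 makes the deiodinase that converts thyroxine in the liver and clears inactive forms, and it is a textbook target of triiodothyronine. Its level was 80.7, 124, 150.3 and 165 CPM in the vehicle livers and 157, 211, 154 and 169 CPM at 0.1 mg/kg. At 1 mg/kg it ranged from 143 to 258 CPM with a median of 192, and at 6 mg/kg from 173 to 258 CPM with a median of 219.8. Every liver at 6 mg/kg was above every vehicle liver, while the lower doses overlapped vehicle. The group means were 130.0 ± 37.2 CPM in vehicle, then 173 ± 26.3, 196 ± 38.9 and 218 ± 39.6 CPM with dose (SD, n = 4, 4, 6 and 6).

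Dio1 rose at 6 mg/kg by a log2 fold change of 0.75 (SE 0.204, adjusted p 0.0494 by edgeR), 1.68 times the vehicle mean. The log2 fold change was 0.59 at 1 mg/kg (SE 0.203, adjusted p 0.508 by edgeR) and 0.41 at 0.1 mg/kg (SE 0.219, adjusted p 0.994 by edgeR). The slope was 0.24 per step of dose rank (SE 0.0633, adjusted p 0.0368 by edgeR). The call at 6 mg/kg was close to the threshold: it was kept by DESeq2 (adjusted p 0.00772) and lost when any single vehicle library or 6 mg/kg animals 52, 53, 54 or 58 were left out. Without vehicle animals 3, 4, 7 and 8 in turn the adjusted p was 0.184, 0.153, 0.0765 and 0.0529, and without animals 52, 53, 54 and 58 it was 0.103, 0.0544, 0.0580 and 0.115. Against 0.1 mg/kg in place of vehicle, the log2 difference was 0.34 (adjusted p 0.502 by edgeR).

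Slc16a10 was at 165, 125, 136 and 133 CPM in the vehicle livers and at 146, 142, 152 and 179 CPM at 0.1 mg/kg. At 1 mg/kg it ranged from 67.4 to 138 CPM with a median of 103, and at 6 mg/kg from 76.3 to 113 CPM with a median of 95.4. Each liver at 6 mg/kg was below the vehicle range. The means were 139.8 ± 17.5, 155 ± 16.8, 104 ± 23.9 and 95.3 ± 14.6 CPM from vehicle to 6 mg/kg (SD, n = 4, 4, 6 and 6). The log2 fold change of -0.55 at 6 mg/kg (SE 0.171) missed the threshold (adjusted p 0.0748 by edgeR) and passed it by DESeq2 (adjusted p 0.0266). Over dose rank Slc16a10 fell by 0.23 per step on the log2 scale (SE 0.0587, adjusted p 0.0309 by edgeR). With the dose in mg/kg as the scale, neither slope was called (adjusted p 0.136 by edgeR for Dio1 and 0.0614 for Slc16a10). Without vehicle animals 3 or 4, or 6 mg/kg animals 52 or 58, neither rank slope was called. Without vehicle animal 7 or 0.1 mg/kg animal 28 only Slc16a10 was, and without 6 mg/kg animal 54 only Dio1.

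**Figure D2:**
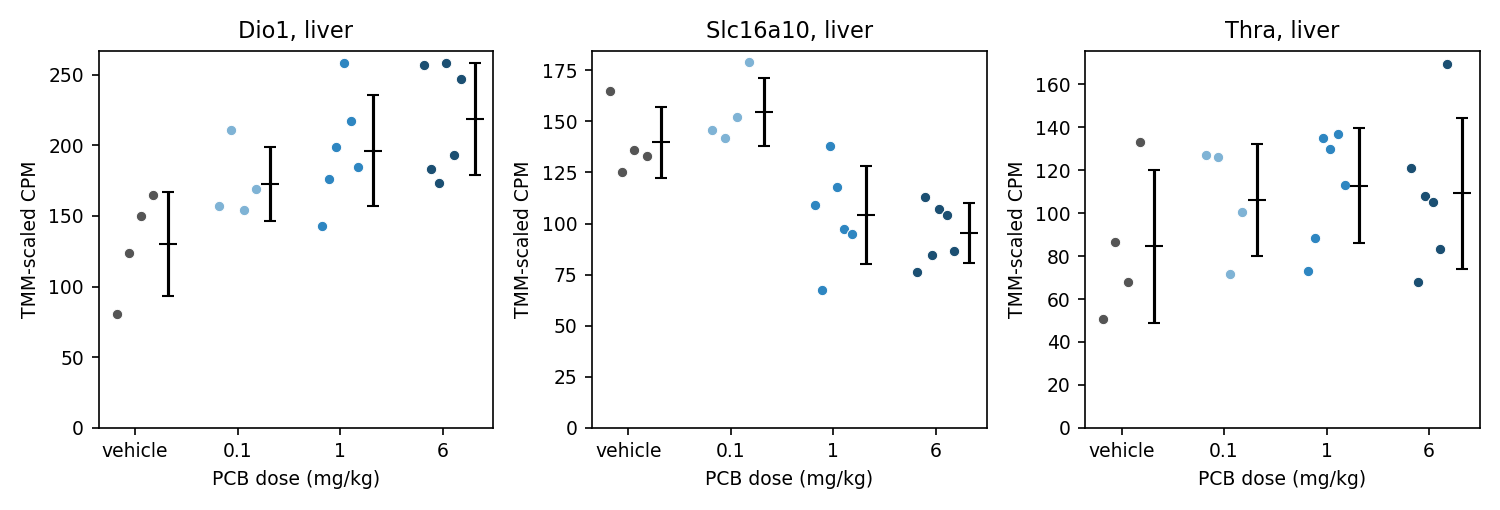
TMM-scaled CPM of Dio1, Slc16a10 and Thra in each liver library (points) by PCB dose in mg/kg; black marks are the group mean and SD (n = 4, 4, 6 and 6). Dio1 at 6 mg/kg lies at 173 to 258 above a vehicle range of 80.7 to 165, Slc16a10 at 76.3 to 113 lies below 125 to 165, and the Thra groups overlap.

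Other library features moved with the same groups. The log2 difference between the clock genes Dbp and Arntl, which peak at opposite times of day, was 2.04 to 5.45 in the vehicle livers and 6.58 to 8.48 at 6 mg/kg, without overlap. It was 6.17 to 7.98 at 0.1 mg/kg and 5.76 to 8.60 at 1 mg/kg. With that difference as a covariate, the log2 fold change of Dio1 was 0.23 (adjusted p 1.00 by edgeR) and that of Slc16a10 was -0.22 (adjusted p 1.00 by edgeR). The GC slope of a library, taken over genes, is the Spearman correlation of GC content with how far each log2 CPM lies from that gene's mean. It was -0.28 to -0.16 in vehicle and -0.02 to 0.24 at 6 mg/kg. With the GC slope as a covariate, an alternative chosen after seeing the data, Dio1 had a log2 fold change of 0.72 (adjusted p 0.417 by edgeR) and Slc16a10 of -0.48 (adjusted p 0.503 by edgeR). The rank slope of Slc16a10 was -0.21 with the clock covariate (unadjusted p 0.0201, adjusted p 0.470 by edgeR) and -0.18 with the GC slope (unadjusted p 0.0463, adjusted p 0.471 by edgeR). The rank slope of Dio1 was 0.09 with the clock covariate (unadjusted p 0.242, adjusted p 0.751 by edgeR) and 0.23 with the GC slope (unadjusted p 0.0191, adjusted p 0.401 by edgeR). In these livers, dose and these features cannot be told apart.

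Over the 20 liver libraries, Dio1 followed Dbp with a Pearson r of 0.80 (permutation p 4.00e-05, adjusted 0.000587 over 44 relations) and a Spearman rho of 0.63 (permutation p 0.00402, adjusted 0.0295). Without the 2 libraries farthest from the Dbp median, r was 0.53. Hepatocyte markers summed to 95329 to 105384 CPM in vehicle and 72358 to 119796 CPM at 6 mg/kg. Kupffer cell markers, for the resident macrophages, summed to 92.9 to 163 and 124 to 275 CPM. The 5 microglia markers, which mark macrophages more widely, summed to 66.0 to 83.0 CPM in vehicle and 90.6 to 168 CPM at 6 mg/kg, without overlap, and to 101 to 121 and 70.0 to 162 CPM at the lower doses. The part of these cell types in the result was not tested.

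The receptors and hormone-responsive genes of the liver gave no call at any dose. Thra was at 50.6, 86.7, 67.7 and 133 CPM in vehicle and at 68.1 to 169.6 CPM with a median of 106 at 6 mg/kg, with overlap (log2 fold change 0.37, SE 0.268, adjusted p 0.404 by edgeR). Thrb was at 21.5, 20.7, 19.8 and 23.5 CPM in vehicle and at 14.2 to 22.3 CPM with a median of 19.2 at 6 mg/kg (log2 fold change -0.19, SE 0.179, adjusted p 0.527 by edgeR). Klf9 was at 56.4, 71.1, 42.9 and 65.2 CPM in vehicle and at 27.7 to 98.7 CPM with a median of 54.5 at 6 mg/kg, where its spread was wider (SD 28.8 against 12.3). Its log2 fold change was 0.02 (SE 0.292, adjusted p 0.974 by edgeR). Hr had 5 to 16 counts per vehicle liver and 1 to 16 at 6 mg/kg. The largest departure of Hr was at 1 mg/kg, with 0 to 5 counts and a log2 fold change of -1.70 (SE 0.709, unadjusted p 0.0251, adjusted p 0.565 by edgeR).

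In 5 lists of other genes on the hormone's route, 61 of 73 were tested in the liver and 3 were called at 6 mg/kg (4.92%, beside 2.80% of all genes), 2 higher and 1 lower. An unadjusted p under 0.05 was reached by 16 (26.2%), close to the 24.2% of all genes. Over dose rank 4 of the 61 were called (6.56%, beside 4.81% of all genes), 4 higher and 0 lower. Of 9 other transporters 1 was called at 6 mg/kg: Slc17a4, which carries thyroid hormones, fell, and this fall was not called over dose rank. Its mean was 81.6 ± 19.4 CPM in vehicle against 49.1 ± 9.11 CPM with treatment (SD, n = 4 and 6), and the log2 fold change was -0.73 (SE 0.175, adjusted p 0.0319 by edgeR). Of the same 9, 3 had an unadjusted p under 0.05 and were lower, and 1 was higher. The hepatic uptake transporters Slco1b2 and Slc10a1 had log2 fold changes of -0.68 and -0.77 (adjusted p 0.0972 and 0.182 by edgeR). They, and the target genes Thrsp and Me1, were chosen after their values were seen.

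Of 12 receptor partners, 4 reached an unadjusted p under 0.05 at 6 mg/kg, all higher, where 24.2% of all genes did in either direction. Hdac3, a deacetylase of the corepressor complex, was called over dose rank (slope 0.16, SE 0.0459, adjusted p 0.0477 by edgeR), and its log2 fold change at 6 mg/kg was 0.44 (adjusted p 0.0925 by edgeR). None of 9 genes of hormone binding and clearance was called, and 2 of the 9, both lower, reached an unadjusted p under 0.05, near the share of all genes.

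Of 18 hepatic target genes 1 was called. Ucp2, a mitochondrial carrier gene, rose from 30.0 ± 7.57 to 60.9 ± 20.1 CPM, and the log2 fold change was 1.02 (SE 0.276, adjusted p 0.0481 by edgeR). Over dose rank, Ucp2 (slope 0.31, adjusted p 0.0413 by edgeR) and the glucagon receptor gene Gcgr (slope 0.34, adjusted p 0.0429 by edgeR) were called. The median log2 fold change of the 18 was -0.34. Thrsp, a lipogenic gene widely used as a readout of hepatic thyroid hormone, ran from 184 to 2146 CPM at 6 mg/kg with a vehicle mean of 913 ± 549 (log2 fold change 0.37, adjusted p 0.712 by edgeR). Me1, which encodes malic enzyme and is another such readout, had a log2 fold change of -1.50 (SE 0.546, adjusted p 0.112 by edgeR). Of the 13 tested genes from the list of brain targets, none was called in the liver. The genes whose levels followed Dio1 most closely over the 20 liver libraries were Sphk2 (r = 0.87), Mbip (r = 0.84) and Oas1c (r = 0.83).

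**Figure D3:**
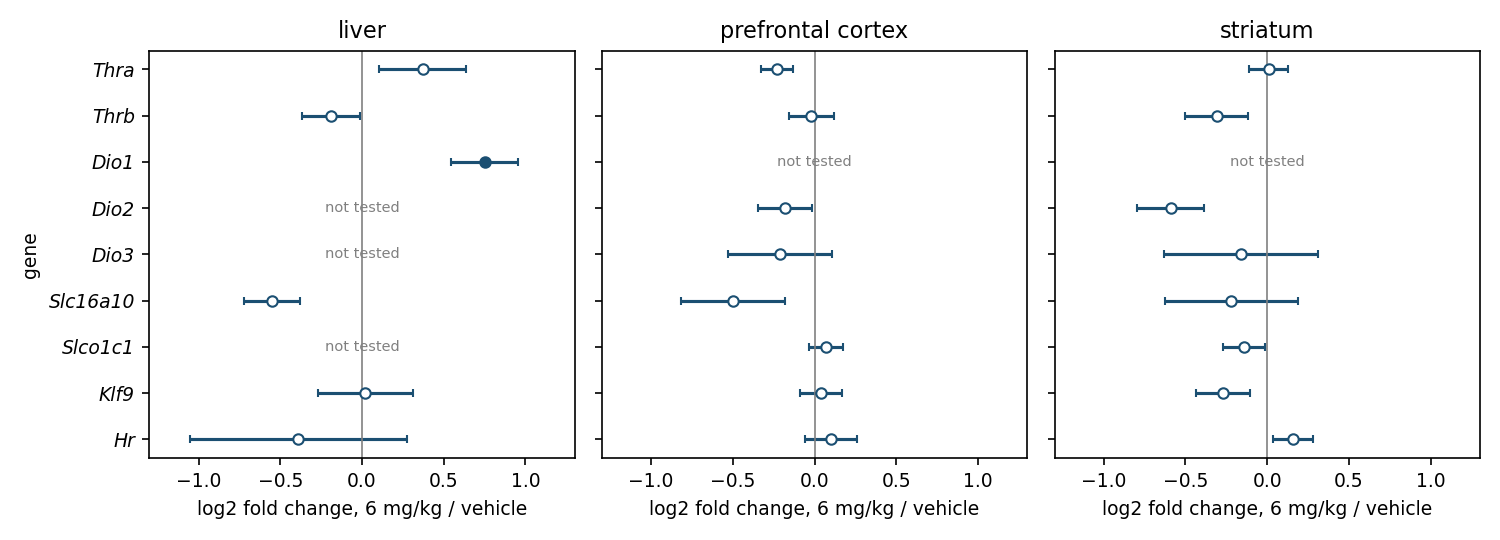
Log2 fold change of each member at 6 mg/kg against vehicle (points) with its standard error (bars) in each tissue; filled points have an edgeR adjusted p under 0.05. Dio1 in the liver, at 0.75, is the only filled point, and striatal Dio2, at -0.59, is the lowest of the brain points.

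In the prefrontal cortex no tested member passed the threshold at any dose, and Thra came nearest. At 6 mg/kg, 0 of 8 members were called by edgeR, beside 0% of 14838 genes, DESeq2 also called none, and 1 had an unadjusted p under 0.05, beside 9.27% of genes. No member was called at 1 or 0.1 mg/kg (0% of genes each), and none had an unadjusted p under 0.05 there (8.29% and 6.43% of genes). Over dose rank none was called (0.0202% of genes), and 3 had an unadjusted p under 0.05, all with a negative slope (9.79% of genes). The groups at 6 mg/kg and vehicle overlapped for each of the 8, as they did for all but 3.11% of genes.

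Thra had the smallest p of the 8. It was at 818, 811, 946 and 889.7 CPM in vehicle and at 658 to 878 CPM with a median of 724 at 6 mg/kg, so only the highest treated library reached the vehicle range. The means were 866 ± 64.1, 887 ± 92.6, 917 ± 119 and 736 ± 83.8 CPM from vehicle to 6 mg/kg (SD, n = 4, 5, 6 and 6), and the log2 fold change at 6 mg/kg was -0.23 (SE 0.0975, adjusted p 0.461 by edgeR). The GC slope of these libraries was -0.34 to 0.25 in vehicle and -0.59 to 0.26 at 6 mg/kg, with medians of -0.04 and -0.25. Thrb was at 63.0, 56.9, 51.9 and 47.9 CPM in vehicle and at 40.0 to 66.0 CPM at 6 mg/kg (log2 fold change -0.02, SE 0.139).

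Dio2 in the prefrontal cortex was at 68.1, 73.6, 62.2 and 85.0 CPM in vehicle and at 77.3, 67.4, 122, 81.4 and 107 CPM at 0.1 mg/kg. At 6 mg/kg it ranged from 43.4 to 73.9 CPM with a median of 66.5 (log2 fold change -0.18, SE 0.165, adjusted p 0.780 by edgeR). Its highest group mean, 91.0 ± 22.6 CPM, was at the lowest dose (log2 fold change 0.34, adjusted p 0.742 by edgeR). Dio3, at 1.60 to 2.81 CPM in vehicle and 1.23 to 2.96 CPM at 6 mg/kg, had 11 to 31 counts per library at that dose. Slc16a10, with 13 to 28 counts per library at 6 mg/kg, had a log2 fold change of -0.50 (SE 0.317, adjusted p 0.656 by edgeR).

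The barrier transporter Slco1c1 was at 55.9, 46.3, 46.3 and 48.4 CPM in vehicle and at 46.1 to 54.8 CPM with a median of 52.5 at 6 mg/kg. That was a log2 fold change of 0.07 (SE 0.104, adjusted p 0.876 by edgeR). Markers of brain endothelium, the cells of the barrier, summed to 320.0 to 375 CPM in vehicle and 325 to 392 CPM at 6 mg/kg. Klf9 had a log2 fold change of 0.04 (SE 0.130) and Hr of 0.10 (SE 0.161), and the vehicle and treated libraries overlapped for both.

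Of the 57 other listed genes tested in the prefrontal cortex, none was called at any dose by edgeR. At 6 mg/kg, 8 (14.0%, beside 9.27% of all genes) reached an unadjusted p under 0.05, with 4 in each direction. The smallest p belonged to Aldh1a1, a retinoic acid synthesis gene (log2 fold change 0.40, SE 0.109, adjusted p 0.285 by edgeR). Genes closest to Thra over the 21 libraries were Nat14 (r = 0.94), Cspg5 (r = 0.94) and Syt5 (r = 0.93).

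In the striatum Dio2 had the lowest levels at 6 mg/kg, although no member was called against vehicle. At 6 mg/kg, 0 of 8 members were called by edgeR or DESeq2, beside 0% of 15118 genes by edgeR, and 1 had an unadjusted p under 0.05, beside 15.7% of genes. At 1 and 0.1 mg/kg none was called (0% of genes each), and none had an unadjusted p under 0.05 (7.36% and 2.53% of genes). Over dose rank none was called (0% of genes), and 1 had an unadjusted p under 0.05 (13.1% of genes). The groups at 6 mg/kg and vehicle overlapped for all 8, while 3.58% of genes had groups apart.

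Dio2 was at 42.1, 35.6, 46.2 and 57.5 CPM in the vehicle striatum and at 41.2, 57.5, 55.1, 34.9 and 73.1 CPM at 0.1 mg/kg. At 1 mg/kg it ranged from 30.6 to 59.4 CPM with a median of 47.8, and at 6 mg/kg from 23.6 to 39.2 CPM with a median of 28.5. Of the 6 libraries at 6 mg/kg only the highest, animal 52 at 39.2 CPM, reached the vehicle range. The means were 45.4 ± 9.19, 52.4 ± 14.9, 45.7 ± 12.3 and 30.1 ± 5.36 CPM from vehicle to 6 mg/kg (SD, n = 4, 5, 6 and 6). The log2 fold change at 6 mg/kg was -0.59 (SE 0.204, unadjusted p 0.00806, adjusted p 0.213 by edgeR), and the lower doses gave 0.01 and 0.21.

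The choice of reference and dose scale decided whether striatal Dio2 passed. Against the 0.1 mg/kg group, the log2 difference at 6 mg/kg was -0.80 (adjusted p 0.0355 by edgeR). With the dose in mg/kg as the scale, Dio2 fell by 0.12 per mg/kg on the log2 scale (adjusted p 0.0126 by edgeR), whereas over dose rank the slope of -0.22 was not called (SE 0.0753, adjusted p 0.290 by edgeR). The share of all genes called against 0.1 mg/kg or over mg/kg is not given here. The GC slope of the striatum libraries was 0.29 to 0.43 at 6 mg/kg and -0.41 to 0.39 in vehicle. It was -0.32 to -0.03 at 0.1 mg/kg and -0.57 to 0.28 at 1 mg/kg, without overlap with 6 mg/kg. The call against 0.1 mg/kg was made without this covariate. With the GC slope as a covariate the log2 fold change against vehicle was -0.69 (adjusted p 0.344 by edgeR). The clock difference was 2.27 to 3.62 at 6 mg/kg and 1.89 to 2.83 in vehicle. With it as a covariate the log2 fold change was -0.53 (adjusted p 0.926 by edgeR) and the rank slope -0.14 (unadjusted p 0.0843, adjusted p 1.00 by edgeR). With 1 surrogate variable the log2 fold change was -0.42 (adjusted p 0.149 by edgeR). Astrocyte markers, for the cells that make Dio2, summed to 2805 to 3070.0 CPM in vehicle and 1796 to 2922 CPM at 6 mg/kg. Neuron markers summed to 3332 to 3999 and 3029 to 3438 CPM, and choroid plexus markers to 40.4 to 706 and 30.9 to 2642 CPM. Oligodendrocyte markers summed to 4149 to 6332 CPM in vehicle and to 6288 to 8883 CPM at 6 mg/kg, with little overlap. The part of these cell types in the Dio2 level was not tested.

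**Figure D4:**
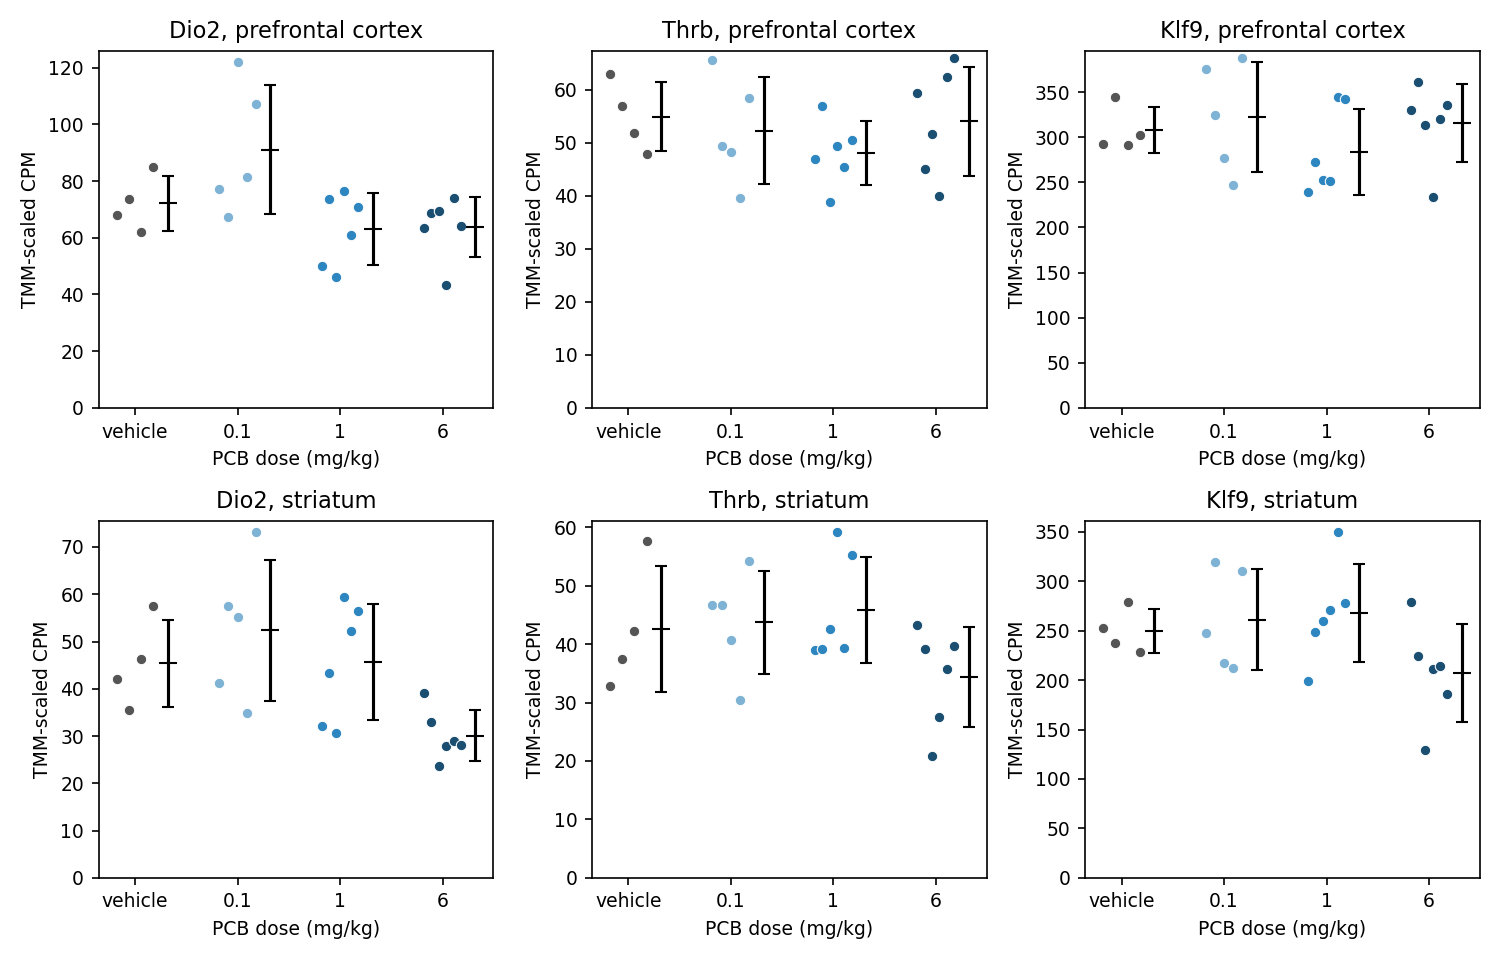
TMM-scaled CPM of Dio2, Thrb and Klf9 in each library (points) of the prefrontal cortex (top) and striatum (bottom) by PCB dose in mg/kg; black marks are the group mean and SD (n = 4, 5, 6 and 6). Striatal Dio2 at 6 mg/kg lies at 23.6 to 39.2 against 35.6 to 57.5 in vehicle and striatal Klf9 at 129 to 279 against 228 to 279, with 1 treated library of each within the vehicle range.

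The receptor and target members of the striatum overlapped vehicle at 6 mg/kg. Thra was at 855, 728, 914 and 1029 CPM in vehicle and at 831 to 1050.0 CPM with a median of 853 at 6 mg/kg (log2 fold change 0.01, SE 0.119, adjusted p 0.987 by edgeR). Thrb was at 32.9, 37.5, 42.3 and 57.6 CPM in vehicle and at 20.8 to 43.3 CPM with a median of 37.4 at 6 mg/kg (log2 fold change -0.31, SE 0.192, adjusted p 0.426 by edgeR). Klf9 was at 253, 238, 279 and 228 CPM in vehicle and at 129 to 279 CPM with a median of 212 at 6 mg/kg (log2 fold change -0.27, SE 0.165, adjusted p 0.419 by edgeR), and as for Dio2 only animal 52 reached the vehicle range. Hr had a log2 fold change of 0.16 (SE 0.122) and Slco1c1 of -0.14 (SE 0.128). Dio3 and Slc16a10 rested on 17 to 42 and 3 to 14 counts per library at 6 mg/kg, with log2 fold changes of -0.16 (SE 0.470) and -0.22 (SE 0.406).

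Of the 57 other listed genes tested in the striatum, none was called at any dose by edgeR. At 6 mg/kg, 13 (22.8%, beside 15.7% of all genes) reached an unadjusted p under 0.05. Receptor partners made up 7 of the 13, with 2 higher and 5 lower out of 12 tested. Hdac3 was among those with the smallest p (log2 fold change 0.31, SE 0.0945, adjusted p 0.208 by edgeR). Dab1 (r = 0.91), Htr2a (r = 0.91) and Sptan1 (r = 0.90) were closest to Dio2 over the 21 libraries.

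The effect of 6 mg/kg on the members was not shown to differ between tissues. Of 8 members in each pair of tissues, 0 were called by edgeR or DESeq2, beside 0.899% of genes for liver against prefrontal cortex, 0.0277% for liver against striatum and 0% for striatum against prefrontal cortex. None had an unadjusted p under 0.05 in any pair, where 20%, 14.3% and 6.43% of genes did. The smallest p was that of Dio2, whose effect in the striatum minus that in the prefrontal cortex was -0.42 (SE 0.211, unadjusted p 0.0555, adjusted p 0.746 by edgeR). In both pairs with the liver, Dio2, Dio3 and Slco1c1 entered only through their brain counts. They had 0 to 9 counts per liver library, the standard error of their interactions was 1.02 to 1.21, and they say nothing about a difference, which leaves 5 members there. Dio1 could not enter these comparisons, and the interaction of Slc16a10 in liver minus prefrontal cortex was -0.07 (SE 0.347), its own log2 fold changes being -0.55 and -0.50.

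Members also varied together across libraries of a tissue, with all doses pooled. Relations within a dose were not tested, and the means of striatal Dio2, Thrb and Klf9 were each lowest at 6 mg/kg (30.1, 34.3 and 207 CPM). Of 71 pairs of members compared, the closest in the striatum were Thrb and Dio2 (r = 0.77, permutation p 2.00e-05, adjusted 0.00106), with a rho of 0.75 (permutation p 8.00e-05, adjusted 0.00284) and an r of 0.70 without the 2 libraries farthest out. Striatal Dio2 and Klf9 had an r of 0.74 (permutation p 3.00e-05, adjusted 0.00106) and a rho of 0.73 (permutation p 0.000220, adjusted 0.00521), with 0.63 without 2 libraries. Thra and Dio3 in the striatum had an r of 0.74 (permutation p 0.000160, adjusted 0.00379) and a rho of 0.80 (permutation p 3.00e-05, adjusted 0.00213), with 0.68 without 2 libraries. In the prefrontal cortex, Thra ran against Klf9 (r = -0.63, permutation p 0.00259, adjusted 0.0230), with a rho of -0.64 (permutation p 0.00264, adjusted 0.0388) and -0.62 without 2 libraries. Thra also ran against Thrb there (r = -0.62, permutation p 0.00255, adjusted 0.0230), with a rho of -0.61 (permutation p 0.00390, adjusted 0.0433) and -0.77 without 2 libraries. In the liver, Thra and Dio1 had an r of 0.73 (permutation p 0.000350, adjusted 0.00621) and a rho of 0.62 (permutation p 0.00427, adjusted 0.0433), which was 0.54 in r without 2 libraries.

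The exons of Thra overlap those of Nr1d1, a clock gene on the opposite strand. Thra lies on the plus strand, and 263 bases, 5.70% of its exon length, are shared with Nr1d1. Whether the counting used strand is not given in the sources used here, so reads from the 2 genes cannot be told apart in that stretch. Thra followed Nr1d1 over the libraries with an r of 0.91 in prefrontal cortex and 0.91 in striatum (permutation p 1e-05 in both, the smallest that the draws can give, adjusted 0.000220). The rho was 0.88 and 0.89 (permutation p 2.00e-05 and 1e-05, adjusted 0.000440), and r without 2 libraries was 0.86 and 0.88. In the liver r was 0.68 (permutation p 0.000820, adjusted 0.00515), rho was 0.58 (permutation p 0.00873, adjusted 0.0516) and r without 2 libraries was 0.47. Dio2 likewise shares 100 exon bases with the opposite-strand gene Gm26512.

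In the brain regions, the GC slope of a library moved with both genes. It correlated with Thra at an r of 0.85 in prefrontal cortex and 0.77 in striatum (permutation p 1e-05 and 2.00e-05, adjusted 8.33e-05 and 0.000125 over 25 relations), with a rho of 0.89 and 0.76 and an r without 2 libraries of 0.78 and 0.70. The rho values had a permutation p of 1e-05 and 0.000150, adjusted 8.33e-05 and 0.000750. Nr1d1 correlated with the GC slope at an r of 0.84 and 0.89 in the same regions, with a rho of 0.85 and 0.87 (permutation p 1e-05 for each of the 4, adjusted 8.33e-05) and an r without 2 libraries of 0.81 and 0.87. In the liver, the r of the GC slope was 0.40 with Thra (permutation p 0.0825, adjusted 0.129), with a rho of 0.39 (permutation p 0.0912, adjusted 0.143) and an r of 0.22 without 2 libraries. With Nr1d1 the liver r was -0.01 (permutation p 0.976, adjusted 0.993), with a rho of -0.04 (permutation p 0.864, adjusted 0.864) and an r of -0.17 without 2 libraries. Liver Dio1 had an r of 0.54 with the GC slope (permutation p 0.0114, adjusted 0.0237), a rho of 0.66 (permutation p 0.00192, adjusted 0.00686) and an r of 0.51 without 2 libraries. Liver Slc16a10 had an r of -0.63 (permutation p 0.00326, adjusted 0.0116), a rho of -0.60 (permutation p 0.00539, adjusted 0.0150) and an r of -0.76 without 2 libraries. Thrb ran against the GC slope in the liver (r = -0.72, permutation p 0.000150, adjusted 0.000750), with a rho of -0.79 (permutation p 6.00e-05, adjusted 0.000375) and -0.61 without 2 libraries. It did so in the prefrontal cortex too (r = -0.73, permutation p 0.000180, adjusted 0.000750), with a rho of -0.70 (permutation p 0.000370, adjusted 0.00154) and -0.67 without 2 libraries. Prefrontal cortex Klf9 had an r of -0.60 (permutation p 0.00440, adjusted 0.0137), a rho of -0.61 (permutation p 0.00404, adjusted 0.0126) and an r of -0.63 without 2 libraries.

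By the longest GENCODE transcript, GC content was 61.6% for Hr, 59.8% for Thra, 57.8% for Dio3, 56.8% for Nr1d1, 51.0% for Dio1, 47.5% for Klf9, 47.3% for Slc16a10, 44.1% for Thrb, 43.4% for Dio2 and 43.1% for Slco1c1. Hr, the highest, had an r with the GC slope of 0.54 in prefrontal cortex (permutation p 0.0114, adjusted 0.0237), with a rho of 0.41 (permutation p 0.0648, adjusted 0.108) and an r of 0.44 without 2 libraries. In striatum the r of Hr was 0.47 (permutation p 0.0322, adjusted 0.0620), with a rho of 0.43 (permutation p 0.0527, adjusted 0.0995) and an r of 0.47 without 2 libraries. Prefrontal cortex Dio3 had an r of -0.00 (permutation p 0.993, adjusted 0.993), a rho of -0.06 (permutation p 0.796) and an r of 0.04 without 2 libraries. In striatum the r of Dio3 was 0.57 (permutation p 0.00631, adjusted 0.0158), with a rho of 0.58 (permutation p 0.00603, adjusted 0.0151) and an r of 0.55 without 2 libraries, so both Dio3 and Thra, which varied together there, moved with the GC slope. Striatal Slco1c1 had an r of -0.56 (permutation p 0.00557, adjusted 0.0155), a rho of -0.55 (permutation p 0.00957, adjusted 0.0217) and an r of -0.56 without 2 libraries. With the GC slope as a covariate, the log2 fold change of Thra at 6 mg/kg in the striatum was -0.22 (unadjusted p 0.0336, adjusted p 0.400 by edgeR), opposite in sign of the 0.01 without it.

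**Figure D5:**
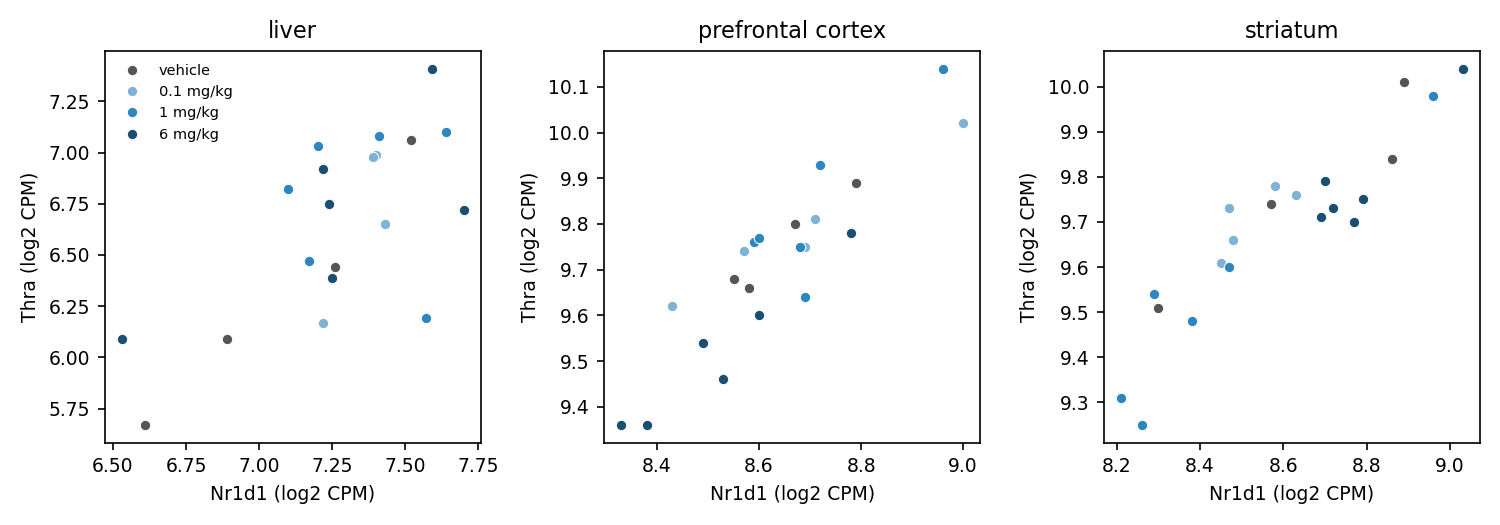
Log2 CPM of Thra against log2 CPM of the overlapping clock gene Nr1d1 in each library (points, coloured by dose) of the liver (n = 20), prefrontal cortex (n = 21) and striatum (n = 21). The points rise along a line in both brain regions (r = 0.91 each) and scatter more in the liver (r = 0.68).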

How the data were processed

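RNA sequencing libraries of liver, prefrontal cortex and striatum were grouped by the tissue and treatment in their labels. For each tissue the authors deposited a table of raw counts, as whole numbers per gene; HISAT2, FastQC and mm10 are named in the submitters' processing notes, while the counter, annotation and use of strand are not given in the sources used here. Per the labels' protocols, enrichment was either by poly(A) or by depleting ribosomal RNA (which is not said), and the protocol text speaks of brain punches only. Nothing says how the samples of a group were housed or pooled, so p-values measure the spread between these samples. The listed genes had at least 10 counts in total.

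The counts were fitted per tissue with edgeR 4.0.16 in R 4.3.3 (filterByExpr, TMM, robust quasi-likelihood, all 4 dose groups). P-values were adjusted by Benjamini-Hochberg over all genes, and a member was called under 0.05. Standard errors are the log2 fold change over the square root of F. Tissues were compared on vehicle and 6 mg/kg libraries over genes listed in both tables. CPM is TMM-scaled within each tissue, while the tests between tissues scaled both tissues together. The log2 CPM for correlations used a prior count of 2, and permutation tests were two-sided with 100000 draws. Exon lengths and overlaps came from GENCODE vM21. Libraries of a group differed beyond sampling noise (smallest chi-square per degree of freedom 2.94). The fits were tested on simulated data. The members and lists were chosen with earlier results of these data known. All members are described; other listed genes are named when called (at most 6), or else the 2 with the smallest p, and the 3 genes most like the member of smallest p. Some listed genes that this rule names are not reported here.

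Alternatives were no filter, a mean of at least 10 counts, median-ratio size factors, DESeq2 1.42.0, 1 surrogate variable (sva 3.50.0), covariates, other references and dose scales, a replicate block and leaving out each library.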

Additional observations from a re-analysis of the deposited data

Results flagged for a closer look

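Of 88 sets of 4 to 6 libraries of 1 member, tissue and dose, 5 held a library set apart from the rest by Dixon's criterion at the 95% level, and chance gives about 5%. In the prefrontal cortex at 6 mg/kg, animal 55 was low for Dio2, at 43.4 CPM with the next library at 63.3 and the highest at 73.9 CPM. The same library was low for Klf9, at 234 CPM with the next at 314 CPM. It was also the highest of its group for Thra, at 878 CPM, and for the GC slope, at 0.26 with the next library at -0.06. Hr in the prefrontal cortex at 0.1 mg/kg was at 67.2 CPM in animal 24, with the next library at 47.3 CPM. Thra in the striatum at 6 mg/kg was at 1050.0 CPM in animal 54, with the next at 885 CPM. Slco1c1 in the striatum at 1 mg/kg was at 77.5 CPM in animal 45, with the next at 54.4 CPM. None of these libraries belongs to the liver. No member had an effect of 6 mg/kg that passed a test of the difference between tissues.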

How the results depend on the processing

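The liver call at 6 mg/kg (1 member) was 2 with DESeq2, and 0 without the filter, with 1 surrogate variable, with the clock covariate, with the GC slope covariate (added after seeing the data), against 0.1 mg/kg, and with the dose group and vehicle alone; leaving out single libraries gave 0 to 2. The 2 liver slope calls were 0 with the dose in mg/kg, the GC slope or the clock covariate, and 0 to 2 when libraries were left out. The Slc16a10 slope (-0.23) was -0.21 with the clock covariate and -0.18 with the GC slope, and the Dio1 slope (0.24) was 0.09 and 0.23. The striatum gave 1 call in place of 0 against 0.1 mg/kg, and 1 over mg/kg. The share of all genes called in the alternatives is not given here, so these counts cannot be set beside it. The vehicle comparison of striatum and prefrontal cortex (3 members) gave 1 to 5 when libraries were left out. The cause was not tested. Of 322 counts recomputed, 290 stayed within 1.5 times the reported count.

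Of 642 recomputed fold changes of members, 34 changed sign, none of a member called as reported. With the clock covariate these were liver Thra -0.17, Thrb 0.03 and Hr 0.23, prefrontal cortex Thrb 0.15 and Hr -0.01, and striatal Thra -0.12 and Slco1c1 0.00. With the GC slope covariate they were liver Thrb 0.27, prefrontal cortex Klf9 -0.06 and striatal Thra -0.22. Against 0.1 mg/kg they were liver Klf9 -0.36 and Hr 0.94, prefrontal cortex Thrb 0.05, Slco1c1 -0.02, Klf9 -0.03 and Hr -0.09, and striatal Dio3 0.36 and Slc16a10 0.54. Striatal Thra was 0.00 with DESeq2 and with median-ratio size factors, and Dio3 was 0.23 with 1 surrogate variable. Leaving out single libraries gave liver Klf9 -0.18 to 0.17, prefrontal cortex Thrb -0.08 to 0.06 and Hr 0.00 to 0.19, and striatal Thra -0.08 to 0.09, Dio3 -0.34 to 0.16 and Slc16a10 -0.54 to 0.20.

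Equal animal numbers across tissues are not said to mark the same mouse. Deviations of same-numbered libraries correlated at a median of 0.01 for liver and prefrontal cortex, 0.00 for liver and striatum and 0.13 for striatum and prefrontal cortex. In the same order, 2 of 20, 2 of 20 and 12 of 21 pairs were over 0.1, and 4, 8 and 11 were closest to their own number. With the number as a replicate block, the vehicle comparisons gave 8, 7 and 3 calls and the interactions 0, as without it. Low counts limit Hr in the liver and Slc16a10 and Dio3 in the brain.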
